A study of Homo sapiens with 4 samples.

Results

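The 10 genes described here are the enzymes and transporters through which cells make or import several amino acids, and they were selected on gene name from the 26485 gene names measured in paclitaxel-resistant and parental anaplastic thyroid cancer (ATC) cells. They are the arginine-handling genes ASS1, ASL and ARG2, the asparagine synthetase gene ASNS, the serine and glycine genes PHGDH, PSAT1 and SHMT2, and the amino-acid transporter genes SLC7A5, SLC7A11 and SLC3A2. The set was chosen by earlier results of the same libraries, in particular the rise of ASS1 in SW1736-PTX cells, so the PTX against wt values of these genes are given as a description. All 10 were measured, each as 1 entry per library, and all 10 were above 0.5 FPKM (fragments per kilobase of gene, scaled to the aligned fragments of the library) in at least 1 library of each comparison.

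SW1736 and 8505C are established human ATC lines. Wild type (wt) cells of each line were grown without drug. SW1736-PTX and 8505C-PTX cells were derived from them over 6 months in paclitaxel, a taxane that stabilizes microtubules, raised from 1 nM to 1.5 µM, and were then maintained in 1.5 µM paclitaxel, so that selection and the presence of the drug cannot be told apart. All cells received RPMI-1640 medium with fetal bovine serum and added L-glutamine. The mRNA of each of the 4 conditions was sequenced as 1 library, with an estimated depth between 43.5 and 57.9 M reads of 75 bp. Each condition has a single library, so the variation between cultures is unknown, no difference was given a p-value, and the 2 lines do not replicate each other. The intervals given cover counting error only.

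The drug efflux pump gene ABCB1 was listed at 0 in SW1736 wt and measured 302.3 FPKM in SW1736-PTX, and it rose from 0.363 to 497 FPKM in 8505C. Over 14692 genes, the SW1736-PTX library had a higher Pearson correlation with 8505C wt (r = 0.873) than with its own parent SW1736 wt (r = 0.767), while 8505C-PTX and 8505C wt gave r = 0.877. The PTX libraries gave r = 0.933 with each other, and the wt libraries r = 0.845. Of the thyroid markers examined, TG, TSHR and SLC5A5 stayed at or below 0.00586 FPKM in the 4 libraries. The thyroid transcription factor gene PAX8 measured 38.2 FPKM in SW1736 wt and between 0.123 and 0.206 in the other libraries, FOXE1 measured 26.6 FPKM in SW1736 wt and at most 0.511 elsewhere, and NKX2-1 was listed at 0 in SW1736 wt and measured between 30.5 and 39.0 FPKM in the other libraries. The summed FPKM of the epithelial markers EPCAM, KRT8, KRT18 and KRT7 was 1501 and 3492 in SW1736 wt and SW1736-PTX, and 1272 and 3058 in 8505C wt and 8505C-PTX, with EPCAM at or below 0.0806. Of 5 markers of other cell types, CD68 alone passed 0.5 FPKM (5.84 and 23.6 in wt and PTX cells of SW1736, 21.7 and 43.0 in those of 8505C), CD3E was listed at 0 in the 4 libraries, and the summed level of the 5 ran from 5.88 to 43.3 FPKM. The part of these differences between libraries in the results was not tested. Whether the library labelled SW1736-PTX came from another line, or was exchanged, was not tested, and a fold change of SW1736 holds only as far as its labels do. Because that library resembled the other line more than its parent, the changes of the 10 genes in SW1736-PTX are given against SW1736 wt, as labelled, and also against 8505C wt, a reference chosen after the data were seen. For other named genes the second value is given at least where it ended a call in SW1736.

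Argininosuccinate synthase (ASS1) joins citrulline and aspartate to argininosuccinate, which argininosuccinate lyase (ASL) splits into arginine and fumarate, and tumour cells that lack ASS1 depend on arginine from outside. Asparagine synthetase makes asparagine from aspartate with nitrogen from glutamine, and PHGDH and PSAT1 lead from a glycolytic intermediate to serine, which SHMT2 converts to glycine in mitochondria with release of a one-carbon unit. SLC3A2 (CD98 heavy chain) carries the light chains SLC7A5 (LAT1), an exchanger of large neutral amino acids, and SLC7A11 (xCT), the cystine/glutamate exchanger, to the plasma membrane, and many of these genes are known targets of ATF4, the transcription factor of the amino-acid response.

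Promoter sequences were available from RefSeq (GRCh38.p14) for 8 of the 10 genes, as 12 windows from 250 bases before to 50 bases after a transcription start. SHMT2 and SLC7A11 had no window. The stretches below were picked as examples, and each holds a motif found in a minority of all promoter windows (7.26% or 3.62%). In ASS1 (chr9:130444841-130444960, plus strand) and SLC7A5 (chr16:87869508-87869757, minus strand), which moved in opposite directions in the PTX cells, capitals mark the E-box CACGTG and the GC box GGGCGG on either strand. In ASNS (chr7:97872458-97872487, minus strand) capitals mark the C/EBP-ATF response element TGATGNAA, the sequence bound by ATF4 with a C/EBP partner.
ASS1 promoter: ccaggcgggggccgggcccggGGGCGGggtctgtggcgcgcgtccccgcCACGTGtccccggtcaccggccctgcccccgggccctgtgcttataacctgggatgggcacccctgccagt
SLC7A5 promoter: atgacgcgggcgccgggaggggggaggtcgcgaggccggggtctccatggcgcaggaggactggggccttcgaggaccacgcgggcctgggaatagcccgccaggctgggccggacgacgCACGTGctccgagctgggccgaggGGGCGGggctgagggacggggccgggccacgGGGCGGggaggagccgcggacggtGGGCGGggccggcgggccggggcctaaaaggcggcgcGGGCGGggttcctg
ASNS element: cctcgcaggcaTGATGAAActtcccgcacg

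The E-box is the core recognition sequence of the MYC and MAX family. It was found at -71 from the ASS1 start at 130444961 and at -130 from the SLC7A5 start. It was thus in 2 of the 12 windows, against 7.26% of all 35116 promoter windows. The window of the other ASS1 start, at 130444707, held GC boxes and no E-box. The ASS1 stretch shown lies downstream of that other start. The C/EBP-ATF response element was found in ASNS at -68 and in SLC3A2 at 38, also 2 of the 12 windows, against 3.62% of all. The GC box was in 11 of the 12 windows and in 45.0% of all. Both strands were searched, each motif on its own, so that letters shared by neighbouring motifs counted for each. These are matches of letters in a fixed window and say nothing of binding in these cells.

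ASS1 (chr9:130444707-130501274 on hg38, plus strand, 15 exons and 1532 bp in the reference transcript of GENCODE) measured 0.411 FPKM in SW1736 wt and 273 FPKM in SW1736-PTX. It measured 7.09 FPKM in 8505C wt and 99.0 FPKM in 8505C-PTX. The 2 PTX libraries were thus above both wt libraries, and within SW1736 it went from the lowest to the highest level of the 10 genes. The PTX level was 664-fold the wt level in SW1736 and 14.0-fold in 8505C. Here and below, fold values are ratios of FPKM with nothing added. The log2 fold change of PTX against wt, computed on FPKM + 0.1, was 9.06 in SW1736 and 3.78 in 8505C. Both were far beyond 1.5, the limit in either direction past which a gene was called changed. About 31 reads lay behind the SW1736 wt value, which gave a counting interval from 0.281 to 0.587 FPKM, and about 24210 reads lay behind the SW1736-PTX value. Against 8505C wt, ASS1 of SW1736-PTX was 38.5-fold higher (log2 5.25). The wt lines differed as well, with 17.3 times the SW1736 wt level in 8505C wt (log2 3.82), and the PTX lines differed by 2.76-fold with SW1736-PTX the higher. GENCODE lists 14 pseudogenes named after ASS1, none of which had an entry of its own in the tables, so reads shared with them could not be told apart.

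ASL (chr7:66075789-66093342, plus strand, 17 exons, 2140 bp), the next enzyme of arginine synthesis, did not follow ASS1 in SW1736. Its level was 23.98 FPKM in SW1736 wt and 14.6 FPKM in SW1736-PTX, which is 1.65-fold lower (log2 -0.71) and within the call limit of 1.5. It measured 6.34 FPKM in 8505C wt and 24.5 FPKM in 8505C-PTX, 3.86-fold higher (log2 1.93). The PTX libraries therefore did not stand apart from the wt libraries for ASL, since SW1736 wt reached the level of 8505C-PTX and 8505C wt lay alone at the bottom. Against 8505C wt, SW1736-PTX was 2.30-fold higher (log2 1.19), so the direction in SW1736-PTX depended on the reference library. Its exons share bases with another annotated protein-coding gene on the same strand, and reads of the 2 cannot be told apart there.

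ARG2 (chr14:67619862-67651719, plus strand, 8 exons, 1911 bp) encodes the mitochondrial arginase, which splits arginine into ornithine and urea. Its levels were 5.85 and 7.20 FPKM in the wt cells of SW1736 and 8505C, and 11.5 and 13.1 FPKM in the PTX cells, in the same order. Both PTX libraries were above both wt libraries, by 1.97-fold (log2 0.96) in SW1736 and 1.82-fold (log2 0.86) in 8505C, and neither change reached the call limit. Against 8505C wt the change of SW1736-PTX was log2 0.67. ARG2 shares exon bases with VTI1B on the other strand, and whether the counting used strand is not stated.

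**Figure D1:**
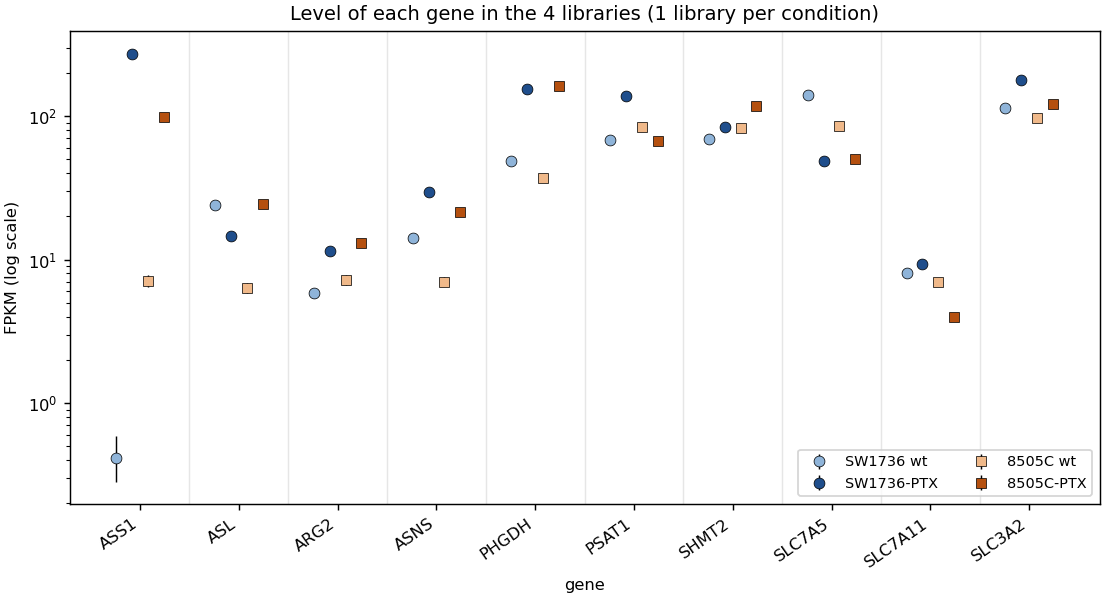
Level of the 10 genes in FPKM on a log scale, with 1 point per library (circles SW1736, squares 8505C, light wt, dark PTX) and bars for the 95% counting interval, which is visible for ASS1 in SW1736 wt and mostly hidden by the points elsewhere. ASS1 spans from 0.411 to 273 FPKM, and SLC7A5 is the gene for which both PTX points lie below both wt points.

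ASNS (chr7:97852117-97872542, minus strand, 13 exons, 2385 bp) measured 14.2 FPKM in the wt cells of SW1736 and 29.7 FPKM in their PTX cells, and 6.99 and 21.3 FPKM in those of 8505C. Both PTX libraries were above both wt libraries. The increase was 2.09-fold in SW1736 (log2 1.06), within the limit, and 3.04-fold in 8505C (log2 1.59), just beyond it. The call in 8505C was lost with a pseudocount of 1 (log2 1.48) or with centring on the median gene (log2 1.49). Against 8505C wt, SW1736-PTX was 4.25-fold higher (log2 2.07), beyond the limit. GENCODE lists 4 pseudogenes named after ASNS, none with an entry in the tables, and a lncRNA on the same strand shares exon bases.

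PHGDH (chr1:119711796-119744226, plus strand, 12 exons, 1866 bp), the first enzyme of serine synthesis from glucose, measured 48.4 FPKM in SW1736 wt and 37.0 in 8505C wt. In PTX cells it measured 155 FPKM in SW1736-PTX and 161 FPKM in 8505C-PTX, so that the PTX libraries lay close together and well above both wt libraries. The change was 3.20-fold (log2 1.68) in SW1736 and 4.35-fold (log2 2.12) in 8505C, and PHGDH and ASS1 were the 2 genes of the 10 called in both lines. Against 8505C wt the change of SW1736-PTX was 4.19-fold (log2 2.06). The PTX lines differed from each other by 1.04-fold (log2 0.05).

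PSAT1 (chr9:78297075-78330093, plus strand, 9 exons, 2206 bp), which catalyses the step after PHGDH, had 68.1 FPKM in wt and 137 FPKM in PTX cells of SW1736, and 83.5 and 66.5 FPKM in those of 8505C. SW1736-PTX was the highest library and 8505C-PTX the lowest, so the groups overlapped. On the log2 scale the change was 1.01 (2.02-fold) in SW1736 and -0.33 in 8505C, and 0.72 for SW1736-PTX against 8505C wt. SHMT2 (chr12:57229573-57234935, plus strand, 12 exons, 2157 bp) varied least of the 3 serine and glycine genes, with 68.9 FPKM in wt and 83.3 FPKM in PTX cells of SW1736, and 82.1 and 118 FPKM in those of 8505C. Its log2 fold change was 0.28 in SW1736 and 0.53 in 8505C, and SW1736-PTX differed from 8505C wt by log2 0.02. PSAT1 has 4 pseudogenes by name in GENCODE, none with an entry in the tables, and SHMT2 shares exon bases with NDUFA4L2 on the other strand.

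SLC7A5 (chr16:87830023-87869494, minus strand, 10 exons, 4556 bp), whose promoter is shown above, was the highest of the 10 genes in SW1736 wt at 141 FPKM and measured 85.7 FPKM in 8505C wt. It measured 48.8 FPKM in SW1736-PTX and 49.8 FPKM in 8505C-PTX. It was the 1 gene of the 10 with both PTX libraries below both wt libraries. It was 2.89-fold lower in SW1736 (log2 -1.53), just beyond the limit, and 1.72-fold lower in 8505C (log2 -0.78). Against 8505C wt the change of SW1736-PTX was log2 -0.81, within the limit. Its pseudogenes, which can share reads with it, were likewise lower in both PTX libraries than in both wt libraries. SLC7A5P1 measured 3.19 and 2.91 FPKM in the wt cells of SW1736 and 8505C and 2.43 and 2.23 FPKM in the PTX cells, and SLC7A5P2 ranged from 2.01 to 3.04 FPKM. A lncRNA on the other strand shares exon bases with SLC7A5.

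SLC7A11 (chr4:138164094-138242349, minus strand, 12 exons, 9645 bp) was the lowest of the 3 transporter genes in every library, with 8.11 FPKM in wt and 9.29 FPKM in PTX cells of SW1736, and 6.96 and 3.97 FPKM in those of 8505C. The log2 fold change was 0.19 in SW1736 and -0.80 in 8505C, and 0.41 for SW1736-PTX against 8505C wt. The PTX libraries were the highest and the lowest of the 4, so wt and PTX overlapped. SLC3A2 (chr11:62856012-62888883, plus strand, 9 exons, 1885 bp), the shared heavy chain, had 114 FPKM in wt and 179 FPKM in PTX cells of SW1736, and 96.3 and 122 FPKM in those of 8505C. Both PTX libraries were above both wt libraries by a small margin, with log2 fold changes of 0.65 and 0.34 in the lines, and 0.89 for SW1736-PTX against 8505C wt. SLC7A11 shares exon bases with its antisense transcript SLC7A11-AS1.

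The number of reads behind the levels ranged from about 31 for ASS1 in SW1736 wt to about 31452, and for the other 9 genes the counting interval of a log2 fold change was at most ±0.167. Counting error was thus small beside the changes of ASS1 and PHGDH. The interval of ASNS in 8505C (1.59 ± 0.118) reached across the call limit, and that of SLC7A5 in SW1736 (-1.53 ± 0.0296) reached to it.

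**Figure D2:**
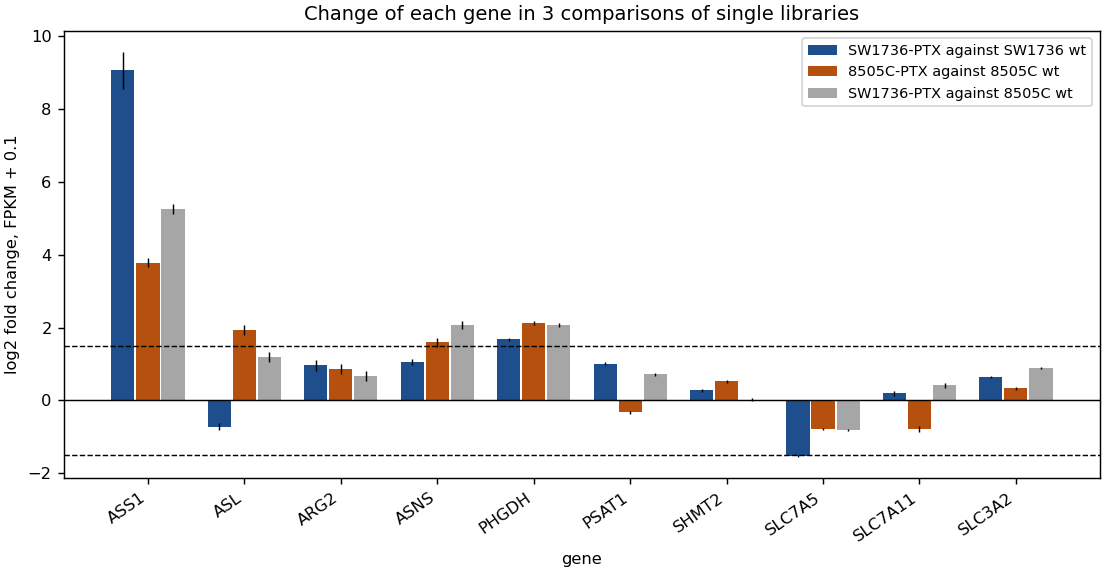
Log2 fold change of the 10 genes on FPKM + 0.1 for SW1736-PTX against SW1736 wt (blue), 8505C-PTX against 8505C wt (orange) and SW1736-PTX against 8505C wt (grey), with bars for the 95% counting interval and dashed lines at 1.5 and -1.5. ASS1 and PHGDH pass the upper line in the 3 comparisons, SLC7A5 passes the lower line in the SW1736 pair alone, and the ASL bars point in different directions.

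Counted together, 2 of the 10 genes were called increased in SW1736 (ASS1 and PHGDH), where 15.7% of all 14202 compared genes were, and 1 was called decreased (SLC7A5), where 10.2% were. In 8505C, 4 of the 10 were called increased (ASS1, ASL, ASNS and PHGDH) beside 15.0% of 13794 genes, and 0 were called decreased beside 5.89%. Increases called in both lines took in 2 of the 10 genes and 7.37% of the 13304 genes compared in both. The median log2 fold change was 0.81 over the 10 genes and 0.01 over all genes in SW1736, and 0.69 and 0.11 in 8505C. Because the genes were selected with these values known, nothing is read from these shares.

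Both PTX libraries exceeded both wt libraries for 6 of the 10 genes (ASS1, ARG2, ASNS, PHGDH, SHMT2 and SLC3A2). They did so for 31.6% of 14692 genes. They lay below both wt libraries for 1 of the 10, and for 26.5% of the 14692. For SHMT2, SW1736-PTX exceeded 8505C wt by log2 0.0217 ± 0.0425, so the order of these libraries was within counting error. The other 3 genes, ASL, PSAT1 and SLC7A11, had log2 fold changes of opposite sign in the 2 lines. Against 8505C wt, 3 of the 10 genes of SW1736-PTX were beyond the limit, all of them higher (ASS1, ASNS and PHGDH), while 20.4% of 13824 genes were beyond it in either direction.

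Between lines, 2 of the 10 genes differed beyond the limit in wt cells, ASS1 being higher in 8505C wt (log2 3.82) and ASL lower (log2 -1.90), and 17.6% of 13457 genes did so. In PTX cells 0 of the 10 differed beyond the limit, and 7.79% of 13986 genes did. The largest remaining differences of 8505C-PTX from SW1736-PTX were log2 -1.46 for ASS1, -1.21 for SLC7A11 and -1.05 for PSAT1. Summed up as a distance over the log2 levels of the 10 genes, the PTX libraries were 2.46 apart and the wt libraries 4.50. ASS1 and ASL, the genes beyond the limit in wt cells, weigh most in the 4.50. The median absolute log2 difference between the lines over the 10 genes was 0.342 in wt and 0.529 in PTX cells. Over all compared genes it was 0.558 and 0.325. By this median the 10 genes were no closer in PTX than in wt cells. SW1736-PTX was 9.56 from SW1736 wt and 6.33 from 8505C wt, and 8505C-PTX was 5.25 from 8505C wt. Both SW1736-PTX distances rest mostly on ASS1 (log2 9.06 and 5.25), whose rise led to the choice of the set.

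Since FPKM is per gene length, the levels of genes that work together can be set against each other within a library. In SW1736 the ratio of the ASS1 to the ASL level was 0.0171 in wt and 18.7 in PTX cells, and in 8505C it was 1.12 and 4.04. Thus ASS1 mRNA was far below ASL mRNA in SW1736 wt cells alone, about equal to it in 8505C wt and above it in both PTX libraries. For the transporter dimers, the SLC7A5 to SLC3A2 ratio was 1.24 in SW1736 wt and 0.890 in 8505C wt, and 0.273 and 0.409 in the corresponding PTX libraries. SLC7A5 mRNA was therefore near SLC3A2 mRNA in wt cells and below it in PTX cells. The proteins were not measured here.

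The SLC7A11 to SLC3A2 ratio stayed low, between 0.0325 in 8505C-PTX and 0.0723 in 8505C wt. In serine synthesis, the PHGDH to PSAT1 ratio was 0.711 and 0.443 in the wt libraries of SW1736 and 8505C, and 1.13 and 2.42 in the PTX libraries. PHGDH thus passed PSAT1 in both resistant lines, and its ratio to SHMT2 rose likewise from 0.703 to 1.86 in SW1736 and from 0.450 to 1.36 in 8505C.

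**Figure D3:**
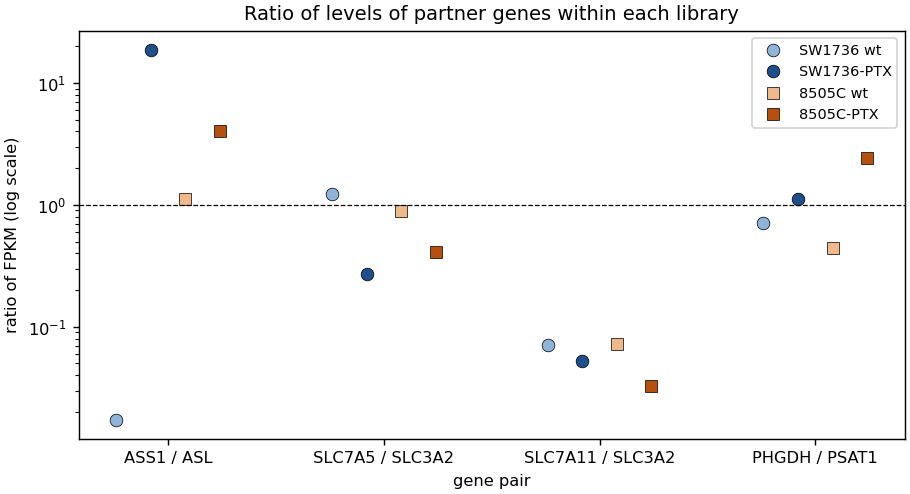
Ratio of the FPKM levels of 4 pairs of partner genes within each library, on a log scale, with 1 point per library and a dashed line at equal levels. The ASS1 to ASL ratio runs from 0.0171 in SW1736 wt to 18.7 in SW1736-PTX, and the SLC7A5 to SLC3A2 ratio is lower in each PTX library than in each wt library.

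Ranked by level, SLC7A5, SLC3A2, SHMT2, PSAT1 and PHGDH led in SW1736 wt, followed by ASL, ASNS, SLC7A11, ARG2 and ASS1. In SW1736-PTX the order was ASS1, SLC3A2, PHGDH, PSAT1, SHMT2, SLC7A5, ASNS, ASL, ARG2 and SLC7A11, so ASS1 moved from last to first. In 8505C wt SLC3A2, SLC7A5, PSAT1, SHMT2 and PHGDH led, and the lower genes ARG2, ASS1, ASNS, SLC7A11 and ASL each had counting intervals that overlapped those of their neighbours. In 8505C-PTX PHGDH led before SLC3A2, SHMT2, ASS1, PSAT1, SLC7A5, ASL, ASNS, ARG2 and SLC7A11. Overlap with the next gene in the order was also found for SHMT2 and PSAT1 in both wt libraries, for SLC7A5 and PSAT1 in 8505C wt, and for SLC3A2 and SHMT2 in 8505C-PTX. Among all genes, ASS1 stood at percentile 13.2 of level in SW1736 wt, 98.6 in SW1736-PTX, 51.3 in 8505C wt and 95.7 in 8505C-PTX.

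Around the 10 genes, 9 lists of other genes of amino-acid metabolism were examined, 151 genes in all, the lists having been drawn up with earlier results of these libraries known. In SW1736, 14 of the 119 compared list genes were called increased and 7 decreased. In 8505C, 20 of 124 were called increased and 5 decreased. These counts stand beside the backgrounds of 15.7% and 10.2% in SW1736 and 15.0% and 5.89% in 8505C. The list genes called in the same direction in both lines were 5 increases (SLC1A1, DDIT4, CHAC1, RRAGD and GATSL2) and 1 decrease (ODC1). Of these, SLC1A1 lost its call in both lines with a pseudocount of 1 (log2 1.47 in SW1736 and 1.20 in 8505C), and GATSL2 lost it in 8505C with a pseudocount of 1 (log2 1.39) or with centring (log2 1.49). Against 8505C wt, SW1736-PTX had 14 list genes higher and 5 lower beyond the limit, of 119.

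Among the other enzymes of arginine, ornithine, proline and polyamine metabolism, 3 of 16 were called increased and 2 decreased in SW1736 (median log2 -0.25), and 0 and 2 of 15 in 8505C (median -0.40). The decrease in both lines was ODC1, ornithine decarboxylase, the first enzyme of polyamine synthesis. Its level was 122 and 219 FPKM in the wt cells of SW1736 and 8505C, and 41.6 and 45.0 FPKM in the PTX cells (log2 -1.55 and -2.28, and -2.39 for SW1736-PTX against 8505C wt). Both PTX libraries were thus at about the same low level. The largest decrease in SW1736 was AGMAT, an agmatinase, from 1.85 to 0.0365 FPKM, and the largest increase was PRODH, proline dehydrogenase, listed at 0 in the wt cells and at 0.854 FPKM in the PTX cells. Both calls were lost with a pseudocount of 1 (AGMAT log2 -1.46, PRODH 0.89), and AGMAT was also listed at 0 in 8505C wt, against which it turned to log2 0.45 in SW1736-PTX.

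Of the other serine, glycine and one-carbon enzymes, 0 of 10 were called in SW1736 (median log2 -0.17), and 2 of 10 were called increased in 8505C (median -0.22). Thus no other gene of this list was called in both lines, as PHGDH was. The phosphoserine phosphatase gene PSPH, the last step of serine synthesis, stood at log2 -0.96 in SW1736 and -0.12 in 8505C, both within the limit.

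Among enzymes of aspartate, asparagine, glutamate, glutamine and alanine, 1 of 8 was called increased and 1 decreased in SW1736 (median log2 -0.78), and 2 of 10 increased and 0 decreased in 8505C (median -0.13). The SW1736 calls were ASRGL1, an asparaginase, with 1.49 FPKM in wt and 6.71 in PTX (log2 2.10), and ASNSD1, which fell by 1.60 on the log2 scale from 45.1 to 14.8 FPKM. Against 8505C wt neither was beyond the limit (log2 -0.95 and -1.04). In 8505C the largest was the alanine aminotransferase gene GPT, from 0.0719 to 1.08 FPKM, a call lost with a pseudocount of 1 (log2 0.96).

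For methionine and cysteine enzymes the counts were 0 of 6 in SW1736 (median log2 -0.32) and 2 increases among 7 in 8505C (median 0.41). The larger was CDO1, cysteine dioxygenase, with 0.151 FPKM in 8505C wt and 5.79 in 8505C-PTX, and listed at 0 in both SW1736 libraries. For branched-chain amino-acid enzymes they were 0 of 6 in SW1736 (median -0.29), and 1 increase and 1 decrease among 6 in 8505C (median 0.41). BCKDHA, of the complex that oxidizes branched-chain keto acids, rose from 5.21 to 24.6 FPKM (log2 2.22), while the transaminase gene BCAT1 fell from 16.3 to 3.75 FPKM (log2 -2.09). BCKDHA of SW1736-PTX was beyond the limit against 8505C wt (log2 1.67) and not against SW1736 wt (log2 -0.11).

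The other plasma-membrane amino-acid transporters gave 2 increases and 2 decreases among 15 compared in SW1736 (median log2 -0.39), and 4 increases and 0 decreases among 17 in 8505C (median -0.20). SLC1A1, a glutamate and cysteine transporter, was called increased in both lines from low levels, with 0.0146 and 0.0769 FPKM in the wt cells of SW1736 and 8505C and 1.81 and 1.47 FPKM in the PTX cells. SLC38A5, a glutamine transporter, measured 22.2 FPKM in SW1736 wt and at most 0.0347 in the other 3 libraries. SLC7A8, another light chain of SLC3A2, was listed at 0 in both wt libraries and measured 1.60 FPKM in 8505C-PTX, a call lost with a pseudocount of 1 (log2 1.38). Against 8505C wt, where it was listed at 0, SLC38A5 of SW1736-PTX was not called.

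In the list of amino-acid response regulators and their target genes, 6 of 19 were called increased and 1 decreased in SW1736 (median log2 1.04), and 4 and 0 of 19 in 8505C (median 0.73). Against 8505C wt, 5 of the 19 genes of SW1736-PTX were higher and 0 lower beyond the limit (median 1.15). ATF4 itself measured 189 and 511 FPKM in wt and PTX cells of SW1736 and 213 and 408 FPKM in those of 8505C. Both PTX libraries were above both wt libraries, and the log2 fold changes, 1.43 and 0.94, were within the limit. CHAC1, a glutathione-degrading enzyme, rose from 0.710 to 6.55 FPKM in SW1736 (log2 3.04) and from 1.47 to 9.65 FPKM in 8505C (log2 2.63). DDIT4, an inhibitor of mTORC1, rose from 3.17 to 31.9 FPKM (log2 3.29) and from 9.58 to 41.4 FPKM (log2 2.10).

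CEBPB, a C/EBP partner of ATF4, had the largest increase of this list in SW1736, from 3.67 to 59.0 FPKM (log2 3.97), and ATF5 the decrease, from 25.5 to 4.08 FPKM (log2 -2.61). Against 8505C wt, ATF5 of SW1736-PTX was within the limit (log2 -1.28). In 8505C, CEBPB measured 22.5 FPKM in wt and 53.9 in PTX (log2 1.25), and against that wt library the change of CEBPB in SW1736-PTX was log2 1.38, also within the limit. ATF4, CHAC1 and DDIT4 had log2 1.26, 2.08 and 1.73 against 8505C wt, with the calls as against SW1736 wt. The largest increase in 8505C was NUPR1, a stress-induced nuclear protein gene, from 0.1004 to 117 FPKM (log2 9.19). The 4 EIF2AK kinase genes and GCN1 of the list were not called in either line. Among the 8 of the 10 genes with a promoter window, the element bound by ATF4 was found in a window of ASNS and in a window of SLC3A2. Of these genes, ASNS was called in 8505C and SLC3A2 in neither line. SHMT2 and SLC7A11 had no window and could not be searched.

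Of 20 cytosolic aminoacyl-tRNA synthetases, which load amino acids on tRNA, 0 were called in SW1736 (median log2 0.06), and 0 were called increased and 2 decreased in 8505C (median -0.09). The larger decrease was VARS, with 65.9 FPKM in wt and 21.5 in PTX (log2 -1.61). In the list of amino-acid sensing by mTORC1, the kinase complex that couples amino-acid supply to growth, 2 of 19 were called increased and 1 decreased in SW1736 (median -0.19), and 5 and 0 of 20 in 8505C (median 0.16). RRAGD, a Rag GTPase, measured 0.0166 and 0.203 FPKM in the wt cells of SW1736 and 8505C and 1.90 and 4.24 FPKM in the PTX cells. GATSL2, now named CASTOR2, whose product is related to the arginine sensor CASTOR1, rose from 4.91 to 22.4 FPKM in SW1736 (log2 2.17) and from 3.52 to 10.9 FPKM in 8505C (log2 1.60). Against 8505C wt, GATSL2 and RRAGD of SW1736-PTX were beyond the limit (log2 2.64 and 2.73). For RRAGD this was lost with a pseudocount of 1 (log2 1.27). The arginine sensor CASTOR1, listed as GATSL3, had 3.44 FPKM in wt and 1.89 in PTX cells of SW1736 (log2 -0.83, and 2.25 for SW1736-PTX against 8505C wt), and rose from 0.318 to 4.75 FPKM in 8505C (log2 3.53). RRAGA was the decrease in SW1736 (log2 -1.69), and against 8505C wt it was within the limit (log2 -0.87).

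**Figure D4:**
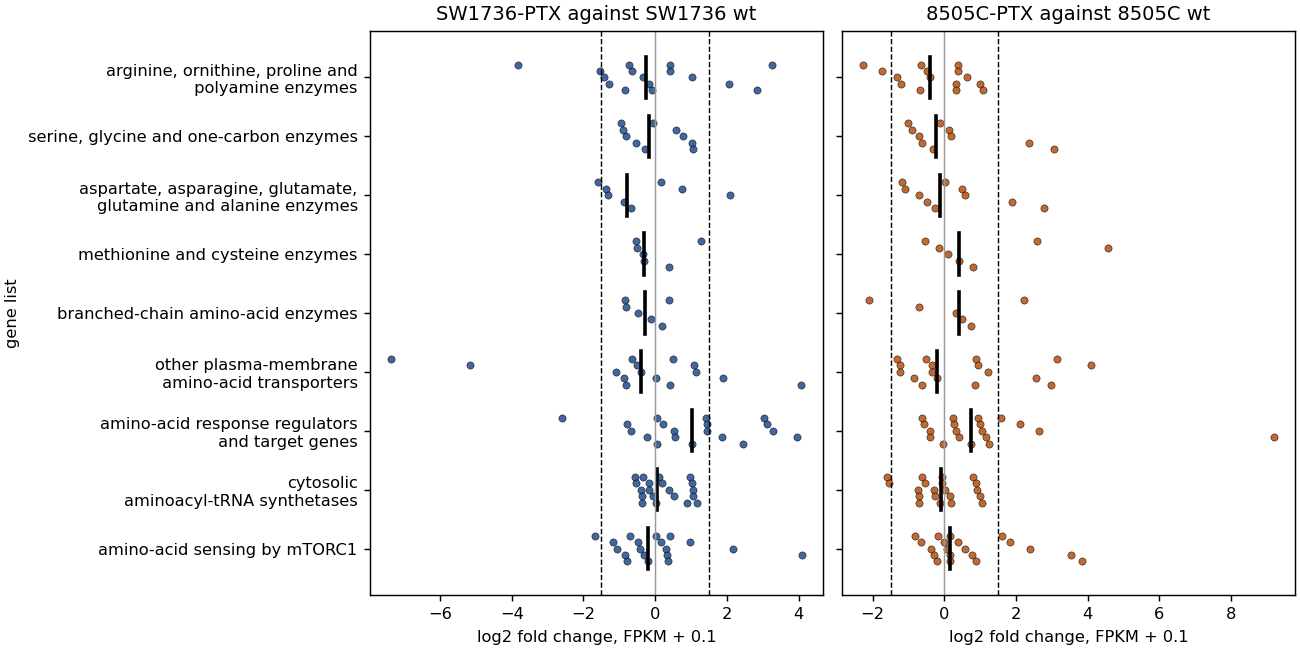
Log2 fold change on FPKM + 0.1 of the compared genes of 9 lists of amino-acid genes in SW1736 (left) and 8505C (right), with 1 point per gene, a black bar at the list median and dashed lines at 1.5 and -1.5. The list of amino-acid response genes has the highest median in both lines, 1.04 in SW1736 and 0.73 in 8505C.

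The genes whose levels over the 4 libraries were most like those of ASS1 were found by the distance between log2 levels after removal of each gene's mean, among 10132 genes above 5 FPKM in at least 1 library. The 5 nearest were GLB1L2 (distance 0.381), MAGEB2 (0.715), HLA-F (1.00), TRIM29 (1.08) and COL3A1 (1.29). GLB1L2, a beta-galactosidase-like gene, was listed at 0 in SW1736 wt and measured 54.2 FPKM in SW1736-PTX, 1.50 in 8505C wt and 26.9 in 8505C-PTX. COL3A1, a fibrillar collagen gene, measured 0.132, 99.8, 1.17 and 58.1 FPKM in the same order. MAGEB2, HLA-F and TRIM29 were also listed at 0 in SW1736 wt and measured below 1 FPKM in 8505C wt, so the 5 genes share a very low level in SW1736 wt, a low level in 8505C wt and a high level in both PTX libraries. With 4 libraries, such likeness is a description only. The nearest of the other 9 amino-acid genes was PHGDH, at rank 821 (distance 5.52).

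Genes within 500 kb were compared with each of the genes called in a line. The 8 compared neighbours of ASS1 included 0 calls in SW1736, with values between -0.43 and 0.97 and a median of 0.08, and 1 call in 8505C, FIBCD1, which measured 0.363 FPKM in wt and 3.36 in PTX (log2 2.90). The change of ASS1 in SW1736 was therefore not shared by the genes beside it. Against 8505C wt, 1 of the 8 neighbours of SW1736-PTX was higher beyond the limit, again FIBCD1 (log2 4.48), and the median was 0.36. The 5 compared neighbours of SLC7A5 had 0 calls in each line (medians -0.35 and -0.01). Those of ASNS had 1 decrease and 0 increases in SW1736 and 0 calls in 8505C (medians -1.28 and -0.92, 5 genes). Those of PHGDH had 2 increases in SW1736 and 1 in 8505C (medians 1.43 and -0.15, 5 genes), and 1 in SW1736-PTX against 8505C wt (median -0.17).

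Around ASL, in contrast, 9 of the 10 compared neighbours were called increased in 8505C and the remaining one lay marginally under the limit, at a rounded log2 fold change of 1.50, and the median was 3.01. Over all compared genes, 15.0% were called increased in 8505C and 15.7% in SW1736. The 10 neighbours are not separate loci, since INTS4P2, CCT6P1 and SNORA22 lie within the span of LOC441242. GUSB, the beta-glucuronidase gene, measured 16.5 FPKM in 8505C wt and 255 in 8505C-PTX (log2 3.94), VKORC1L1 measured 18.1 and 104 FPKM (log2 2.53), and CRCP 14.7 and 50.2 FPKM (log2 1.77). ASL itself (log2 1.93) thus rose together with the genes around it on chromosome 7 in this line. In SW1736, 3 of the same 10 genes were called increased and the median was 0.41, and GUSB measured 26.7 FPKM in wt and 29.4 in PTX (log2 0.14). Against 8505C wt, 5 of the 10 genes of SW1736-PTX were higher beyond the limit and the median was 1.33. Copy number was not measured here, and its part in the 8505C values was not tested.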

How the data were processed

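The mRNA of SW1736 and 8505C wt and PTX cells was measured by RNA sequencing, 1 library per condition, and samples were grouped by their labels. Per the study's methods, the authors made libraries with the Universal Plus mRNA-Seq kit, sequenced single-end reads of 75 bp on a NextSeq instrument, demultiplexed with bcl2fastq 2.20, masked adapters with Cutadapt, trimmed with ERNE, aligned to hg38 with STAR and quantified genes with StringTie, whose version and annotation are not given in the sources used here. The deposited coverage is the mean read depth per base, not normalized by the authors, and served to estimate depth. The deposited FPKM values are scaled by the authors to gene length and library size, and the TPM values deposited by the authors are scaled further to an equal sum per library. The tables hold no counts, so no count model was used.

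FPKM of repeated gene names were summed and log2((a + 0.1)/(b + 0.1)) was computed for genes above 0.5 FPKM in at least 1 library of a pair. A value beyond 1.5 or -1.5 was called. FPKM + 0.1 understates the change of genes with low levels. Depth was estimated per library as the highest ratio of coverage to FPKM among genes above 1 FPKM, divided by the read length. Reads per gene were estimated from FPKM, depth and transcript length in GENCODE release 44, and gave 95% intervals, exact Poisson for levels and by a normal approximation for fold changes. Of 23161 gene names shared with GENCODE, 99.3% overlapped the gene of that name. The computation of calls was checked on simulated libraries. Python 3.11.15, NumPy 2.4.6, pandas 2.3.3, SciPy 1.17.1 and matplotlib 3.10.9 were used.

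The 10 genes and the lists were chosen with earlier results of these data known. Named were the 10 genes, list genes called in both lines or else with the largest called change in a line, the 5 genes most like ASS1, and pseudogenes by name. PSPH, ATF4, the EIF2AK kinases, GCN1 and single genes near ASL and ASS1 were named after their values were seen, as were GATSL3 and CEBPB in 8505C. Alternatives changed the pseudocount, FPKM minimum, unit, centring, repeated names and limit, and the reference of SW1736-PTX. Some list genes that the rule would name are not reported here.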

Additional observations from a re-analysis of the deposited data

Results flagged for a closer look

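Of the 10 genes, 3 had log2 fold changes of opposite sign in the 2 lines, each over 1 pair of libraries, and the difference between lines was not tested. For ASL the log2 fold change in 8505C minus that in SW1736 was 2.65 (1.93 and -0.71). For PSAT1 it was -1.34 (-0.33 and 1.01), and for SLC7A11 -0.99 (-0.80 and 0.19). With 8505C wt as the reference of SW1736-PTX, the ASL value of SW1736-PTX was 1.19, the same direction as in 8505C.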

How the results depend on the processing

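The share of all genes called is given for the main settings only, so nothing is read from the counts at other settings. The number of the 10 genes called depended on the limit. In SW1736 it was 3, 5 with a log2 limit of 1 and 1 with a limit of 2 (ASS1). With FPKM above 0.5 in both libraries it was 2 (PHGDH and SLC7A5), since ASS1 measured 0.411 in SW1736 wt and was left out. In 8505C it was 4 and 2 with a limit of 2 (ASS1 and PHGDH). Between the wt lines it was 2, and 1 with a limit of 2 (ASS1) or with FPKM above 0.5 in both libraries (ASL), for the same reason. With a limit of 1, ASNS (log2 -1.01) was also beyond it between the wt lines. Between the PTX lines the number was 0, and 3 with a limit of 1 (ASS1, PSAT1 and SLC7A11). The call of ASNS in 8505C was lost with a pseudocount of 1 (1.48) and with centring (1.49), and with 8505C wt as the reference of SW1736-PTX, added after the data were seen, ASNS was called (2.07), SLC7A5 was not (-0.81) and ASL turned to 1.19. Over the alternatives, 254 of 288 log2 fold changes of single genes moved by no more than their counting interval, 290 of 342 list counts stayed within 1.5 times, and the median of all genes moved by no more than 0.1 in 24 of 24 cases. A change of the FPKM minimum or of the handling of repeated names cannot alter the log2 fold change of any of the 10 genes. Part of the 254 was therefore fixed in advance. The labels pair wt and PTX cells within each line, and the fold changes of each line were taken over that pair, without a test. A fit with the 2 lines as blocks, with 1 residual degree of freedom, was not run. With 1 library per condition none could be left out. Depth limits ASS1 in SW1736 wt, where a pseudocount of 1 gave a log2 fold change of 7.60.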
